A study of Mus musculus with 8 samples.

Results

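The muscle mimetic cell genes are 9 genes of skeletal muscle, chosen by symbol: the transcription factor gene Myog, the contractile and scaffold genes Actc1, Myl1, Ttn and Des, the calcium channel gene Ryr1, the creatine kinase gene Ckm, and the neuromuscular junction genes Chrna1 and Musk. They are 9 of the 25466 genes in the deposited count table, and all 9 passed the filter on low counts that left 17006 genes to test. RNA-seq was performed on medullary thymic epithelial cells (mTECs) of wild-type BL6N6 mice, used at 4 to 6 weeks of age, with no treatment. Thymus cells were digested with enzymes, depleted of CD45-positive cells and sorted as CD45-negative, EpCAM-positive and CDR1-negative, so every group shares this gate. Within the gate, Tspan8, a tetraspanin used as an example of a tissue-restricted antigen (TRA), and surface MHCII separated 4 subsets: Tspan8negMHCIIlo, Tspan8negMHCIIhi, Tspan8posMHCIIhi and Tspan8posMHCIIlo, with 2 libraries called biological replicates in each. Whether animals were pooled is not stated, so p-values measure the spread between these libraries. The MHCIIlo gate holds immature mTECs together with late mTECs that have lost MHCII, which limits it as a model of either stage.

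In the thymic medulla, epithelial cells transcribe genes of other tissues so that developing T cells that recognise them can be removed or turned into regulatory T cells. Some of these cells adopt a program close to that of a peripheral cell type and are called mimetic cells. Muscle mimetic cells, long known as thymic myoid cells, use myogenic transcription factors and make contractile proteins and the acetylcholine receptor, and the thymus is implicated in myasthenia gravis, in which antibodies against the acetylcholine receptor or MuSK attack the neuromuscular junction. The questions here were at which Tspan8 and MHCII level the muscle genes were highest, and whether they moved as 1 group.

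The genes lie on 4 chromosomes of the GRCm38 build. Myog is at chr1:134289989-134292548, Myl1 at chr1:66924295-66945404 and Des at chr1:75360329-75368579. Actc1 is at chr2:114047282-114053548, Chrna1 at chr2:73563215-73580338 and Ttn at chr2:76703980-76982547. Musk is at chr4:58285960-58374303, Ckm at chr7:19404776-19422841 and Ryr1 at chr7:29003344-29125179. Genes annotated on the opposite strand overlap Actc1, Ckm, Ttn, Ryr1 and Des, and since the sources disagree on whether the libraries kept strand, reads of those partners could not be told apart from theirs. Of the distinct 31-base stretches of the annotated transcripts, 14.5% of Myl1 occur in the pseudogene Mylf-ps. For Ckm, 13.6% occur in other genes, mostly its antisense partner, and for each of the other members at most 5.28%. By shared sequence alone, the Myl1 and Ckm counts are thus the least certain.

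Stretches of promoter are shown for Des and Actc1, which were called lower in Tspan8posMHCIIlo than in Tspan8negMHCIIlo by the criteria below. Chrna1 and Musk, which were not called there, are shown beside them, and Myog as the factor that acts on such sites. Myogenic factors bind E-boxes, of the general form CANNTG and in muscle genes often CAGCTG or CAGGTG, and the serum response factor binds the CArG box. The sequences are upstream of the RefSeq transcript start on the gene's own strand (RefSeq, GRCm38.p6), stop before any annotated exon, and carry matches to these E-box hexamers or to the CArG box in capitals.
Chrna1, chr2:73580339-73580498, minus strand: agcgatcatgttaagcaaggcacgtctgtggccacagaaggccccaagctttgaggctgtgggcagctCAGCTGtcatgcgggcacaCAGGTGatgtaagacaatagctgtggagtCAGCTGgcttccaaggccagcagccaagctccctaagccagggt
Musk, chr4:58285800-58285959, plus strand: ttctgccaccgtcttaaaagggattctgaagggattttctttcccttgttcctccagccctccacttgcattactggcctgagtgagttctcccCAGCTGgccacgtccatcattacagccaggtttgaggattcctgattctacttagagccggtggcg
Des, chr1:75360132-75360291, plus strand: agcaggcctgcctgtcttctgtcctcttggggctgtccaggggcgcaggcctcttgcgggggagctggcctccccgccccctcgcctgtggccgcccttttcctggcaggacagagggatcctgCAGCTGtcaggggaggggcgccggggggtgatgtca
Actc1, chr2:114052888-114053047, minus strand: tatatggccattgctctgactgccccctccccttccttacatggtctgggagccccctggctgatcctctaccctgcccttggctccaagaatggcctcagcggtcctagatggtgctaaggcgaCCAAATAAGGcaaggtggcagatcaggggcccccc
Myog, chr1:134289829-134289988, plus strand: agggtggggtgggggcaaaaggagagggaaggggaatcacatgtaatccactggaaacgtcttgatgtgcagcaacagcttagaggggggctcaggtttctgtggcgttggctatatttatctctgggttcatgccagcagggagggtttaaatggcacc

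Counting upstream from the start, with the match's first base as its position, Chrna1 held CAGCTG at -92 and -44 and CAGGTG at -73. Musk held CAGCTG at -68, Des at -36, Myl1 at -224 and Ckm at -249, and Ttn held CAGGTG at -138 and a MEF2 site at -166. Actc1 held a CArG box at -47, Myog held E-boxes of other letters at -138 and -12, and none of these letters was found in the 250 bases before Ryr1. On both strands of the same window in 32817 RefSeq promoters, CANNTG occurred in 66.2%, CAGCTG in 13.0%, CAGGTG in 17.2%, the MEF2 site in 2.92% and the CArG box in 1.47%. A match is a description of the letters only. CAGCTG and CAGGTG are also counted under CANNTG.

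The libraries held 1941518 to 7783841 estimated counts, and the smallest and the largest were both of Tspan8posMHCIIlo, replicates 1 and 2. Levels are given as counts per 1000000 (CPM) scaled by the TMM method, and 3 counts served as the floor. Floors and the intervals named as counting intervals cover counting error only, since several reads can come from 1 amplified molecule, whereas the other intervals are 95% intervals of the edgeR fit and include the spread between libraries. The summed level of the 8 mTEC markers (Epcam, Krt5, Krt14, Krt8, Cdh1, Foxn1, H2-Aa and Aire) was 5985 to 11105 CPM. By the criteria below, 2 were higher and 3 lower in Tspan8posMHCIIlo than Tspan8negMHCIIlo, beside 12.1% and 9.34% of all genes tested. In Tspan8negMHCIIhi 3 were higher and 2 lower than in Tspan8negMHCIIlo, beside 13.1% and 9.67%. H2-Aa belongs to the MHCII used for the sort, so the sum is not independent of the gate. The 9 muscle genes summed to 320.5 and 222 CPM in the replicates of Tspan8negMHCIIlo, 341 and 319 in Tspan8negMHCIIhi, 83.2 and 84.1 in Tspan8posMHCIIhi, and 55.5 and 62.7 in Tspan8posMHCIIlo. Fewer cells of a type and less RNA per cell cannot be told apart in such bulk samples, and Ttn alone made up most of the sum in Tspan8negMHCIIhi.

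**Figure D1:**
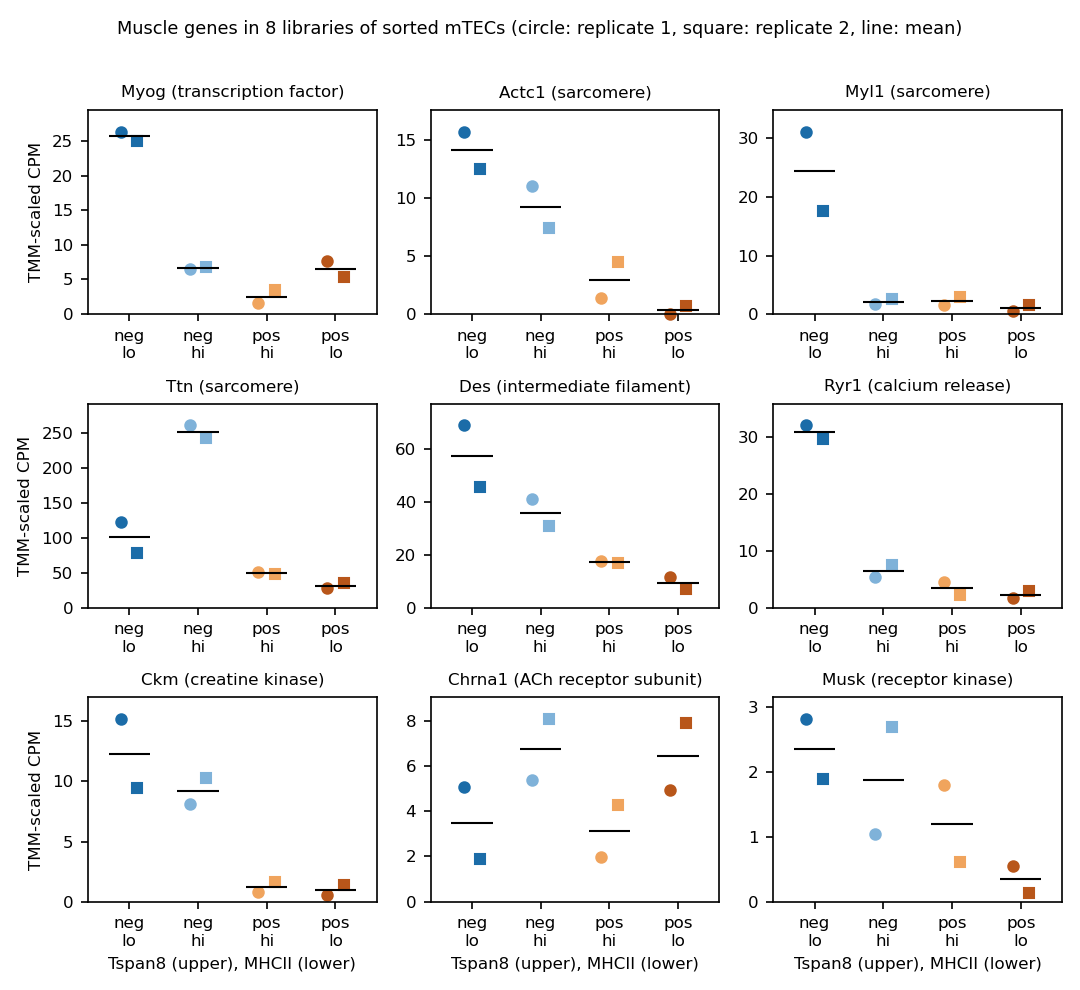
Level of each of the 9 muscle genes (TMM-scaled CPM, each axis from 0) in the 8 libraries, by subset, with replicate 1 as a circle, replicate 2 as a square and the mean of 2 libraries as a line. Tspan8negMHCIIlo had the highest mean for 7 genes, while Ttn (252 CPM) and Chrna1 (6.74 CPM) had theirs in Tspan8negMHCIIhi.

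Myog encodes myogenin, the factor that drives myoblasts into terminal differentiation. Its level was 26.4 and 25.0 CPM in replicates 1 and 2 of Tspan8negMHCIIlo and 6.45 and 6.79 in Tspan8negMHCIIhi. In the Tspan8pos cells it was 1.59 and 3.45 CPM in MHCIIhi and 7.70 and 5.32 in MHCIIlo. The Tspan8negMHCIIlo libraries therefore stood apart from the other 6, which overlapped in part, since Tspan8posMHCIIlo and Tspan8negMHCIIhi did not differ beyond their spread (log2 difference -0.11 with a 95% interval of -0.92 to 0.70). Of the sum of its 4 subset means, 62.1% lay in Tspan8negMHCIIlo. Myod1, the factor that commits cells to the muscle lineage, was too low to test, with 0 and 0 counts in Tspan8negMHCIIlo, 6 and 11 in Tspan8negMHCIIhi, 2 and 0 in Tspan8posMHCIIhi and 0 and 1 in Tspan8posMHCIIlo. Myod1 and Myog thus had their highest counts in different subsets.

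Actc1 encodes cardiac alpha actin, which embryonic skeletal muscle also uses. In the Tspan8neg cells it was at 15.7 and 12.5 CPM in MHCIIlo and at 11.02 and 7.43 in MHCIIhi. The Tspan8pos values were 1.39 and 4.47 CPM in MHCIIhi, and 0 and 0.683 in MHCIIlo, where the libraries held 0 and 5 counts. The 4 Tspan8neg libraries all lay above the 4 Tspan8pos libraries. Myl1 encodes the essential myosin light chain of fast fibres. It reached 31.2 and 17.7 CPM in Tspan8negMHCIIlo and 1.66 and 2.56 in Tspan8negMHCIIhi. In Tspan8posMHCIIhi it was 1.59 and 2.84 CPM, and in Tspan8posMHCIIlo 0.550 and 1.502. Only the Tspan8negMHCIIlo libraries were high, and they held 82.0% of the sum of the subset means.

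Ttn encodes titin, the giant protein that spans from Z disc to M line and gives the sarcomere its elasticity. It had 123 and 78.5 CPM in Tspan8negMHCIIlo and 261 and 243 in Tspan8negMHCIIhi. The Tspan8pos libraries held 52.0 and 47.7 CPM in MHCIIhi, and 28.0 and 35.5 in MHCIIlo. No subset overlapped another, and the order, from Tspan8negMHCIIhi down to Tspan8posMHCIIlo, was not that of Myog or Myl1. Des encodes desmin, the intermediate filament that ties myofibrils together in skeletal, cardiac and smooth muscle. It declined in steps, from 68.8 and 45.5 CPM in Tspan8negMHCIIlo to 41.0 and 30.8 in Tspan8negMHCIIhi. Below these came Tspan8posMHCIIhi with 17.5 and 16.9 CPM and Tspan8posMHCIIlo with 11.5 and 7.23. The subsets did not overlap, although neither step between the MHCII levels met the criteria below.

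Ryr1 encodes the ryanodine receptor through which the sarcoplasmic reticulum releases calcium. Levels of 32.0 and 29.7 CPM in Tspan8negMHCIIlo compared with 5.41 and 7.56 in Tspan8negMHCIIhi. They were 4.58 and 2.24 CPM in Tspan8posMHCIIhi and 1.65 and 3.003 in Tspan8posMHCIIlo, so that 71.6% of the sum of its means lay in Tspan8negMHCIIlo. Ckm encodes the muscle creatine kinase, which regenerates ATP during contraction. It was at 15.2 and 9.43 CPM in Tspan8negMHCIIlo and, overlapping with these, at 8.11 and 10.3 in Tspan8negMHCIIhi. The Tspan8pos values were 0.797 and 1.63 CPM in MHCIIhi and 0.550 and 1.37 in MHCIIlo. Ckm thus separated the libraries by Tspan8 and overlapped within each Tspan8 level.

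Chrna1 encodes the alpha subunit of the muscle acetylcholine receptor, the main target of the antibodies in myasthenia gravis. Its level was 5.06 and 1.89 CPM in Tspan8negMHCIIlo and 5.41 and 8.08 in Tspan8negMHCIIhi. It was 1.99 and 4.27 CPM in Tspan8posMHCIIhi and 4.95 and 7.92 in Tspan8posMHCIIlo. All 6 pairs of subsets had adjusted p-values between 0.121 and 0.994 (edgeR's quasi-likelihood test, Benjamini-Hochberg), so no order of the subsets could be resolved. Musk encodes the receptor kinase that gathers the receptor at the junction. It was the lowest member, with 10 and 8 counts (2.81 and 1.89 CPM) in Tspan8negMHCIIlo and 5 and 21 counts (1.04 and 2.69 CPM) in Tspan8negMHCIIhi. Tspan8posMHCIIhi had 9 and 3 counts (1.79 and 0.610 CPM) and Tspan8posMHCIIlo 1 count in each library (0.550 and 0.137 CPM), at which a fold could only be bounded.

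Per kilobase of the longest annotated transcript, the levels in Tspan8negMHCIIlo were 22.6 CPM for Myl1, 18.9 for Des, 17.2 for Myog and 9.58 for Actc1, against 0.945 for Ttn, 0.791 for Chrna1 and 0.686 for Musk. In Tspan8negMHCIIhi, Des led with 11.8 CPM per kilobase, ahead of Actc1 with 6.26 and Myog with 4.43, and Ttn stood at 2.36. On this scale Ttn was thus not the most abundant member in any subset. The scale takes the whole longest transcript, 106824 bases for Ttn, to be covered evenly by reads, which was not tested. All 9 genes were higher in replicate 1 of Tspan8negMHCIIlo than in replicate 2, by the smallest ratio in Myog (26.4 against 25.0 CPM) and the largest in Chrna1 (5.06 against 1.89 CPM). The same replicates differed in thymocyte markers the other way, with a summed 336 against 933 CPM for 6 genes, and in fibroblast markers, with 130 against 248 CPM for 6 genes, and the part of either in the muscle values was not tested.

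The first comparison asked whether cells that made the TRA Tspan8 differed in the muscle genes from cells that did not. Among MHCIIlo cells, 7 of the 9 genes were lower in the Tspan8pos subset and none was higher, by edgeR or by DESeq2 or at an unadjusted p under 0.05. The criteria for a call were an adjusted p under 0.01 by edgeR's quasi-likelihood test together with a fold of at least 2, which 9.34% of the 17006 genes met in the lower direction and 12.1% in the higher. The log2 fold changes, ± the standard error, were -4.67 ± 0.70 for Actc1, -4.25 ± 0.53 for Myl1, -3.54 ± 0.40 for Ryr1 and -3.38 ± 0.52 for Ckm. Des followed with -2.74 ± 0.29, Myog with -2.06 ± 0.35 and Ttn with -1.62 ± 0.22. The adjusted p-values of these 7 ranged from 2.95e-05 for Des to 0.000815 for Myog, and in each the libraries of the subsets did not overlap, as held for 67.8% of all genes tested. The size for Actc1 rests on 0 and 5 counts in the Tspan8pos cells. Musk had 18 counts against 2, a ratio of 10.5 with an exact 95% counting interval of 2.53 to 93.8, and its adjusted p of 0.0362 missed the threshold. Chrna1 had 6.43 against 3.47 CPM with an interval of -0.25 to 2.23 around its log2 difference of 0.99. The median over the 9 genes was -3.20 as fitted and -2.74 with Musk set at the floor in Tspan8posMHCIIlo, against -0.03 over all genes tested. Without replicate 2 of Tspan8posMHCIIlo the adjusted p for Myog was 0.0235 and 6 genes were called.

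Among MHCIIhi cells the same comparison called 3 of the 9 genes, Ckm, Ttn and Des, all lower in the Tspan8pos subset, beside 7.45% of all genes tested called lower and 11.0% called higher. Ckm changed by -2.91 ± 0.50 (adjusted p = 0.000877), Ttn by -2.34 ± 0.20 (adjusted p = 7.48e-06) and Des by -1.05 ± 0.26 (adjusted p = 0.0076) on the log2 scale. Myog (2.52 against 6.62 CPM, adjusted p = 0.0166) and Actc1 (2.93 against 9.23 CPM, adjusted p = 0.0288) missed the threshold, although their libraries did not overlap between the subsets, as in 73.8% of all genes tested. Myl1 was at 2.22 and 2.11 CPM, with a log2 difference of 0.03 and an interval of -1.16 to 1.21. The median over the 9 genes was -1.12, against -0.03 over all genes tested. The call of Des, at the limit of the fold, was lost when any of 6 single libraries was left out (adjusted p 0.0101 to 0.0567), and without replicate 1 of Tspan8posMHCIIhi, Ckm was lost as well (adjusted p = 0.0151) and 1 gene was called.

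Whether the effect of Tspan8 differed between the MHCII levels was tested by the interaction, for which 4.60% of all genes tested were called. Of the 9 genes only Myl1 passed, with a log2 fold change that was lower by 4.27 ± 0.77 in MHCIIlo than in MHCIIhi (interaction -4.27, adjusted p = 0.00562). Ryr1 had an interaction of -2.60 ± 0.57 (adjusted p = 0.0145), Des of -1.69 ± 0.39 (adjusted p = 0.0181) and Actc1 of -3.04 ± 0.93 (adjusted p = 0.0561), none past the threshold. Ttn and Chrna1 had positive values of 0.71 ± 0.29 and 2.11 ± 0.77 with adjusted p-values of 0.145 and 0.105. For Ckm the value was -0.47 with an interval of -2.17 to 1.23. The call of Myl1 was lost when any of the 6 libraries outside Tspan8negMHCIIlo was left out (adjusted p 0.0129 to 0.042), and 2 or 3 genes were called without replicate 1 or 2 of Tspan8negMHCIIlo.

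**Figure D2:**
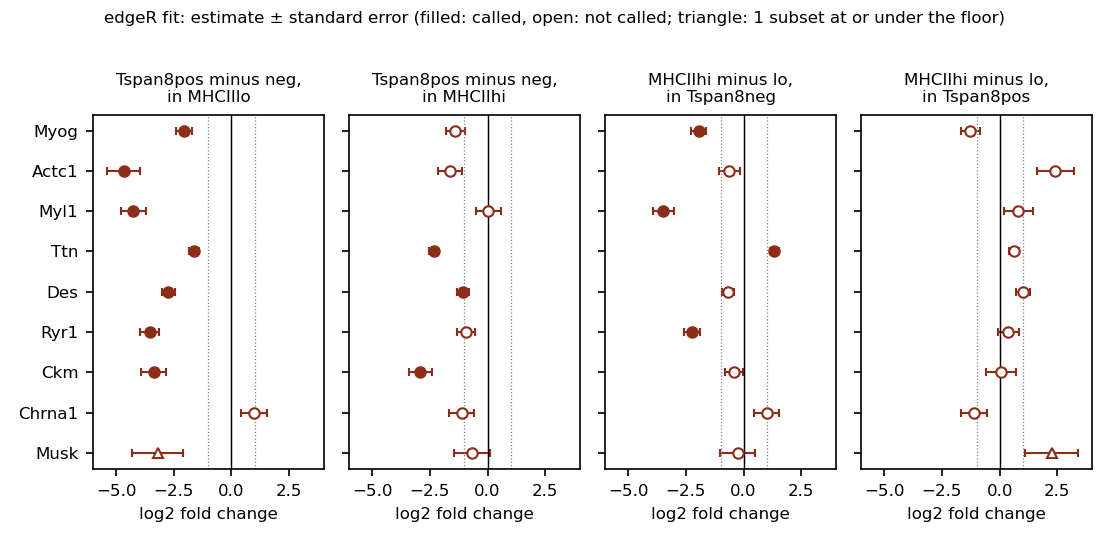
log2 fold changes of the 9 muscle genes (x axis) with their standard errors in the 4 comparisons, filled where called, open where not, and as a triangle where a subset was at or under the floor of 3 counts, with dotted lines at a fold of 2. Among MHCIIlo cells 7 genes lie far to the left of 0, whereas between MHCIIhi and MHCIIlo in Tspan8neg cells Ttn (1.32) lies opposite to Myog (-1.95), Myl1 (-3.47) and Ryr1 (-2.23).

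The MHCII comparison asked about maturation within a Tspan8 level. In Tspan8neg cells it split the members. Myog, Myl1 and Ryr1 were lower in MHCIIhi than in MHCIIlo, with differences of -1.95 ± 0.33, -3.47 ± 0.46 and -2.23 ± 0.34 on the log2 scale (adjusted p = 0.000739, 0.000141 and 0.000389), while Ttn was higher by 1.32 ± 0.20 (adjusted p = 0.000319). These were 3 members called lower and 1 called higher, beside 9.67% and 13.1% of all genes tested. Actc1, Ckm and Des had smaller differences that were not called, with -0.62 for Actc1 (interval -1.64 to 0.40), -0.41 for Ckm (interval -1.27 to 0.46) and -0.68 for Des (adjusted p = 0.0404 by edgeR's quasi-likelihood test). Chrna1 was at 6.74 against 3.47 CPM (adjusted p = 0.163) and Musk at 1.87 against 2.35 CPM (adjusted p = 0.807). The median over the 9 genes was -0.62, against -0.04 over all genes tested. Without replicate 1 or 2 of Tspan8negMHCIIhi, Myog missed the threshold (adjusted p = 0.0136 and 0.0149).

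In Tspan8pos cells none of the 9 genes was called between the MHCII levels by edgeR's quasi-likelihood test, where 4.59% of all genes tested were called higher and 2.62% lower in MHCIIhi. DESeq2 called none either, and at an unadjusted p under 0.05 edgeR had 3 genes higher and 1 lower. The median log2 fold change of the 9 genes was 0.61 as fitted and 0.38 with Musk set at the floor, against 0.01 over all genes tested. Des had 17.2 against 9.39 CPM (log2 difference 1.01 ± 0.31, adjusted p = 0.0462) and Ttn 49.9 against 31.8 CPM (0.61 ± 0.22, adjusted p = 0.083). Actc1 had 2.93 against 0.341 CPM (adjusted p = 0.0626) and Myog 2.52 against 6.51 CPM (adjusted p = 0.0602). The libraries did not overlap for 7 of the 9 genes, Ckm and Ryr1 being the exceptions, as held for 58.1% of all genes tested. Des was called without replicate 1 or replicate 2 of Tspan8negMHCIIlo, libraries that are in neither subset and enter through the shared estimate of the spread.

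The remaining pairs of subsets completed the order of levels. Against Tspan8negMHCIIlo, Tspan8posMHCIIhi was lower in 7 of the 9 genes, beside 10.3% of all genes tested, with log2 fold changes from -3.44 ± 0.47 for Myl1 to -1.01 ± 0.20 for Ttn and only Chrna1 (-0.12) and Musk (-0.94) not called. Ttn lay at the limit of the fold and was under it in most alternatives, and Actc1 was lost without replicate 1 of Tspan8posMHCIIhi (adjusted p = 0.0414). Against Tspan8negMHCIIhi, Tspan8posMHCIIlo was lower in 4 genes, beside 14.6% of all genes tested, with -4.05 ± 0.71 for Actc1, -2.97 ± 0.52 for Ckm, -2.95 ± 0.22 for Ttn and -2.06 ± 0.29 for Des. Without replicate 2 of Tspan8posMHCIIlo 1 of these remained called, Ttn, and the other 3 had adjusted p-values of 0.0101 to 0.0122. Chrna1 was at 6.43 and 6.74 CPM in the last pair, with an interval of -1.14 to 1.13.

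Over the 8 libraries, Myl1 followed Ryr1 most closely (Pearson r of log2 CPM 0.93), and Actc1 followed Ckm (0.91) and Des (0.89). Ttn correlated with Ckm at 0.84 but with Myl1 at 0.31 and with Myog at 0.27. Chrna1 stood aside, with values from -0.31 to 0.23 against the other 8 members. These values are descriptions over 8 libraries that fall into 4 subsets and share their depth. Among all genes tested outside the list, the mean standardised profile of the 9 genes was most like that of Ncam1 (r = 0.988), the neural cell adhesion molecule, with means of 23.1, 14.5, 5.13 and 3.83 CPM in Tspan8negMHCIIlo, Tspan8negMHCIIhi, Tspan8posMHCIIhi and Tspan8posMHCIIlo. Mdk, Nop58, Cdip1 and Srm followed with r of 0.986 or 0.987. Of single members, Ttn had Slc25a38 as its nearest gene (r = 0.998), Actc1 had Thap12, Myog Ptms, Ryr1 Celf2, Ckm Fignl1, Myl1 Map2k5, Des Xylt1, Musk Ston2 and Chrna1 Gm31258, with r of 0.968 to 0.991.

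Genes of the wider muscle program were followed in lists for myogenic factors, the neuromuscular junction, the sarcomere, excitation-contraction coupling and muscle energy metabolism. These lists include the members and are not limited to genes made only in muscle. Agrn (142 to 519 CPM), Ache (177 to 785), Colq (64.2 to 202) and Tpm2 (119 to 434) had subset means far above those of Chrna1 and Musk. Whether their transcripts came from cells with a muscle program was not tested. Of 14 myogenic factors 10 were tested. Myog was called lower and Pax7, the factor of muscle stem cells, higher in Tspan8negMHCIIhi than in Tspan8negMHCIIlo (9.72 against 0.73 CPM, log2 fold change 3.63 ± 0.69). With 1 of the 10 called each way, beside 9.67% of all genes tested lower and 13.1% higher, the shares were near those of all genes. Myog was also the 1 factor called, lower, in Tspan8posMHCIIlo against Tspan8negMHCIIlo, beside 9.34% of all genes tested lower and 12.1% higher. None was called by edgeR or DESeq2 in Tspan8posMHCIIhi against Tspan8negMHCIIhi (beside 7.45% of all genes tested lower and 11.0% higher) or against Tspan8posMHCIIlo (2.62% and 4.59%). At an unadjusted p under 0.05, however, edgeR had 1 higher and 4 lower in the first and 1 higher and 3 lower in the second. Without replicate 1 or 2 of Tspan8negMHCIIlo, 2 factors were called lower in Tspan8posMHCIIhi than in Tspan8negMHCIIhi, and among MHCIIlo cells 2 were called lower without its replicate 1, 1 higher without its replicate 2, and none lower without replicate 2 of Tspan8posMHCIIlo. The median log2 fold change of the factors lay between -0.40 and -0.04 in the 4 comparisons. Pax7 missed the threshold without replicate 1 or 2 of Tspan8negMHCIIhi.

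At the neuromuscular junction, 11 of 12 genes were tested, and 4 were lower in Tspan8posMHCIIlo than in Tspan8negMHCIIlo with none higher, by edgeR or DESeq2 or at an unadjusted p under 0.05, beside 9.34% and 12.1% of all genes tested. The gene not tested, Rapsn, which anchors the receptor and is named after its values were seen, lay the other way, with 21 counts in Tspan8posMHCIIlo against 3 in Tspan8negMHCIIlo (ratio 5.97, counting interval 1.78 to 31.3). Dok7, the adaptor that activates MuSK, was at 0 counts in both Tspan8posMHCIIlo libraries and at least 2.44-fold lower, by the floor, and Chrnd, the receptor's delta subunit, had 1 count against 27 (ratio 31.6, counting interval 5.22 to 1296). Colq, the collagen tail that anchors acetylcholinesterase, changed by -1.58 ± 0.13 (64.2 against 192 CPM) and Agrn, the signal that clusters the receptor, by -1.04 ± 0.14 (251 against 519 CPM). In MHCIIhi cells Colq (-1.19 ± 0.12) and Dok7 (3 counts against 51, ratio 13.4, counting interval 4.34 to 67.1) were lower in the Tspan8pos subset. None was called higher by edgeR or DESeq2, beside 7.45% of all genes tested lower and 11.0% higher, and 1 was higher at an unadjusted p under 0.05 in edgeR. Between MHCII levels Ache, acetylcholinesterase itself, was higher in MHCIIhi by 2.01 ± 0.12 in Tspan8neg cells, from 195 to 785 CPM, and by 1.44 ± 0.12 in Tspan8pos cells. Agrn went the other way in Tspan8neg cells (-1.87 ± 0.15), and Chrnd was higher in Tspan8posMHCIIhi than in Tspan8posMHCIIlo, with 33 counts against 1 (ratio 30.4, counting interval 5.08 to 1235). In Tspan8neg cells 1 of the 11 was thus called higher and 1 lower, beside 13.1% and 9.67% of all genes tested, neither above the share of all genes. In Tspan8pos cells 2 of the 11 were higher, beside 4.59% of all genes tested.

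Left out 1 at a time, replicate 1 of Tspan8negMHCIIlo and replicates 1 and 2 of Tspan8posMHCIIlo reduced the 4 junction genes lower in MHCIIlo to 2, 1 and 2, Agrn being lost without the first or the second of these, Chrnd without either Tspan8posMHCIIlo library, and Dok7 without any of the 3 or either Tspan8negMHCIIhi library. The 2 lower in MHCIIhi were 1 without any of its own 4 libraries, Dok7 being lost, and also with DESeq2 (Dok7 adjusted p = 0.0193) and with a filter of 10 counts in 4 libraries, and 4 without replicate 2 of Tspan8negMHCIIlo. The 2 higher in Tspan8posMHCIIhi than in Tspan8posMHCIIlo were 1, with Chrnd lost, without either Tspan8negMHCIIhi or Tspan8posMHCIIlo library or replicate 1 of Tspan8posMHCIIhi, with the replicate block, with only the 4 libraries compared and with DESeq2 (Chrnd adjusted p = 0.0144), and 2 genes rather than 1 were higher in Tspan8negMHCIIhi than in Tspan8negMHCIIlo without replicate 1 of the latter. Ache and Colq kept their called differences in all such fits, and overlap other annotated genes. The subunits that distinguish the receptor by age had few counts. Chrng, the fetal gamma subunit, had 11 and 0 counts in Tspan8negMHCIIlo, 25 and 35 in Tspan8negMHCIIhi, 4 and 5 in Tspan8posMHCIIhi and 0 and 0 in Tspan8posMHCIIlo. Chrne, the adult epsilon subunit, had 10 and 12 counts, 58 and 68, 9 and 20, and 4 and 3 in the same order. Both had their highest counts in Tspan8negMHCIIhi.

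The sarcomere list also had members on both sides of the MHCII comparison. Of 37 tested genes of 43, 13 were higher and 5 lower in Tspan8negMHCIIhi than in Tspan8negMHCIIlo, with a median log2 fold change of 0.99, beside 13.1% and 9.67% of all genes tested, so that the share called lower was near that of all genes. Myh3, the embryonic myosin heavy chain, had 5 and 5 counts (1.40 and 1.18 CPM) in Tspan8negMHCIIlo and 228 and 412 (47.4 and 52.8 CPM) in Tspan8negMHCIIhi, a log2 fold change of 5.26 ± 0.32. Myh2, the myosin of fast oxidative fibres, had no count in Tspan8negMHCIIlo and was at least 4.15-fold higher by the floor, and Myl3, the slow light chain, had 52 counts against 1 (ratio 32.2, counting interval 5.52 to 1295). Acta1, the adult skeletal actin, went the other way, with 52.2 and 39.8 CPM in Tspan8negMHCIIlo against 1.66 and 3.08 in Tspan8negMHCIIhi (-4.20 ± 0.33). Of the myosin heavy chains in the list, only Myh1, of fast glycolytic fibres, was lower in Tspan8negMHCIIhi with Acta1 and Myl1 (4.80 against 17.5 CPM, -1.86 ± 0.47, adjusted p = 0.00787 by edgeR's quasi-likelihood test). Myh2 and Myh3 were higher with Ttn. Myh4 (49.1 against 8.17 CPM), Myh7 (15.8 against 2.57 CPM) and Myh8 (26.9 against 1.62 CPM) also had higher means in Tspan8negMHCIIhi. Myh1, named here after its values were seen, missed the threshold with DESeq2 (adjusted p = 0.0154), with its size factors, and without replicate 1 of Tspan8negMHCIIlo or any MHCIIhi library. The myosin heavy chains of the list other than Myh7 are near-identical neighbours whose reads could be split between them. Acta1, Myl3, Myh1, Myh2 and Myh7 each overlap at least 1 gene on the opposite strand. Leaving out replicate 2 of Tspan8negMHCIIhi lowered the 5 to 3, and the calls of Myh2 and Myl3 were lost without any of the 6 libraries outside Tspan8posMHCIIlo, that of Myl3 also with DESeq2 (adjusted p = 0.0273).

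**Figure D3:**
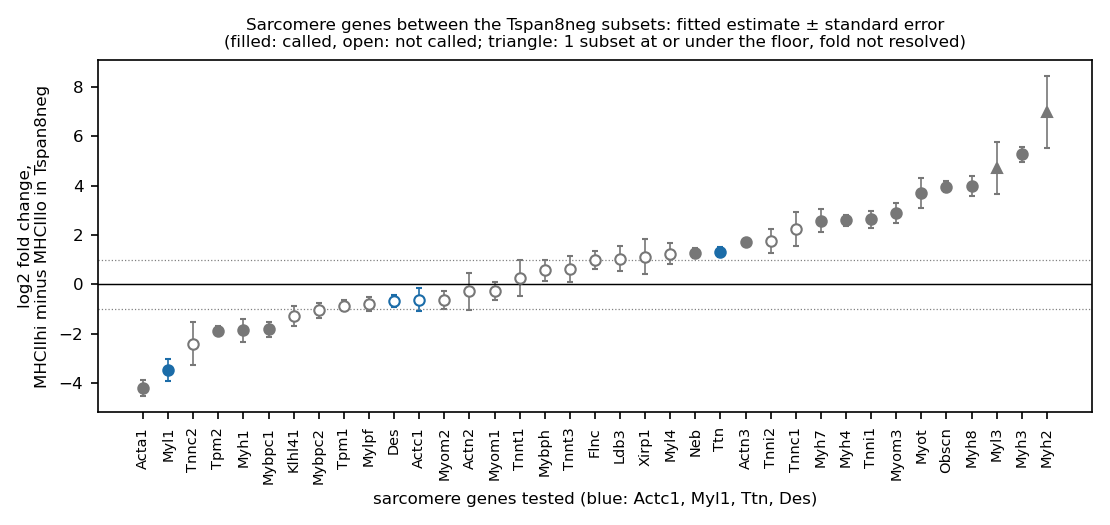
log2 fold change (y axis, fitted estimate ± standard error) of the 37 sarcomere genes tested between Tspan8negMHCIIhi and Tspan8negMHCIIlo, ordered by size, filled where called, with Actc1, Myl1, Ttn and Des in blue and genes with a subset at or under the floor as triangles. Of them 13 are called above and 5 below 0, with Acta1 (-4.20) and Myl1 (-3.47) at the low end.

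In Tspan8posMHCIIlo against Tspan8negMHCIIlo, 16 of the 37 sarcomere genes were lower and 3 higher, beside 9.34% and 12.1% of all genes tested (median -1.78, or -1.55 with genes at or under the floor set at it). The largest were Actc1 and Myl1, Myh1 with 1.02 against 17.5 CPM (-3.51 ± 0.57) and Myh8, a perinatal myosin with 1 count against 13 (ratio 15.2, counting interval 2.29 to 648). In the MHCIIhi subsets 12 were lower and 3 higher, beside 7.45% and 11.0% of all genes tested, led by Myh3 (-2.47 ± 0.23), Myh8 (-2.38 ± 0.33), Actn3, the alpha-actinin of fast fibres (88.5 against 450.5 CPM, -2.35 ± 0.13), and Ttn. In Tspan8pos cells 8 (beside 4.59% of all genes tested) were higher in MHCIIhi than in MHCIIlo and none lower, by edgeR or DESeq2, with 1 lower at an unadjusted p under 0.05 and 1 called lower without replicate 2 of Tspan8negMHCIIlo. They included Ldb3, a Z-disc protein (10.4 against 0.478 CPM, 3.79 ± 0.64), Myh4 (2.88 ± 0.29), Myot, which links actin filaments at the Z disc and was at least 4.10-fold higher by the floor, and Myh8, with 51 counts against 1 (ratio 46.9, counting interval 8.05 to 1889). The first counts fell to 10 and 1 without replicate 2 of Tspan8posMHCIIlo, the second to 7 lower without replicate 2 of Tspan8posMHCIIhi and to 1, 0 and 1 higher without replicate 1 or 2 of Tspan8negMHCIIhi or replicate 2 of Tspan8posMHCIIhi, and the third to 4, 4, 5 and 3 without each Tspan8pos library in turn. Myh8 in MHCIIlo cells was lost without replicate 2 of Tspan8negMHCIIlo or any Tspan8negMHCIIhi or Tspan8posMHCIIlo library and with DESeq2 (adjusted p = 0.0221), and in Tspan8pos cells without replicate 2 of Tspan8posMHCIIlo. Ldb3 was lost without any Tspan8pos library and Myot without any but replicate 1 of Tspan8posMHCIIlo.

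Of 16 genes of excitation-contraction coupling 13 were tested, and 5 were lower in Tspan8posMHCIIlo than in Tspan8negMHCIIlo with none higher, beside 9.34% and 12.1% of all genes tested (median -2.09, or -1.60 with the floor). DESeq2 called none higher either, and 1 was higher at an unadjusted p under 0.05. Besides Ryr1, Atp2a1, the calcium pump of fast fibres, had 1.64 against 24.1 CPM (-3.64 ± 0.42), Cacna1s, the voltage sensor coupled to Ryr1, had 2.13 against 8.35 CPM (-2.45 ± 0.57), and Sln, an inhibitor of the pump, was at least 3.03-fold lower by the floor. In MHCIIhi cells, beside 7.45% of all genes tested lower and 11.0% higher, Cacna1s (-1.96 ± 0.38), Atp2a1 (-1.73 ± 0.34) and Ryr3 (-1.56 ± 0.26) were lower in the Tspan8pos subset and Cacnb1, a channel subunit also made outside muscle, was higher (1.38 ± 0.17). Between the Tspan8neg subsets 5 genes were higher in MHCIIhi, among them Cacna1s (1.96 ± 0.39), the chloride channel Clcn1 (2.48 ± 0.62) and Trdn, which holds the release complex together and had 51 counts against 1 (ratio 31.6, counting interval 5.41 to 1270.4), whereas Ryr1 was the 1 gene lower. Of all genes tested, 13.1% were higher and 9.67% lower here. Ryr1 and its voltage sensor Cacna1s thus changed in opposite directions between these subsets. In Tspan8pos cells Scn4a (3.17 ± 0.69), Ryr3 (2.08 ± 0.35) and Jph1 (1.13 ± 0.17) were higher in MHCIIhi, beside 4.59% of all genes tested.

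These coupling counts depended on single libraries, and the calls of every gene named in them but Ryr1, Cacnb1 and the Atp2a1 call in MHCIIlo cells were lost without at least 1 library, and those of Trdn and Clcn1 also with DESeq2 (adjusted p = 0.0172 and 0.0195). The 5 lower in MHCIIlo were 3, 3 and 2 without replicate 1 or 2 of Tspan8negMHCIIhi or replicate 2 of Tspan8posMHCIIlo. The 3 lower in MHCIIhi were 1, 0 and 0 without replicate 1 or 2 of Tspan8negMHCIIhi or replicate 1 of Tspan8posMHCIIhi. The 5 higher in Tspan8negMHCIIhi were 3, 2 and 1 without replicate 2 of Tspan8negMHCIIlo or replicate 1 or 2 of Tspan8negMHCIIhi, and the 3 higher in Tspan8posMHCIIhi were 1, 1 and 0 without its replicate 2 or replicate 1 or 2 of Tspan8posMHCIIlo. Of 9 genes of muscle energy metabolism 6 were tested, and Ckm and Eno3, the muscle enolase, were lower in the Tspan8pos subset at both MHCII levels, Eno3 with log2 fold changes of -1.18 ± 0.21 and -1.14 ± 0.18, with Pygm, the muscle glycogen phosphorylase, lower in MHCIIhi (-1.72 ± 0.36). These were 2 of 6 in MHCIIlo and 3 of 6 in MHCIIhi, beside 9.34% and 7.45% of all genes tested called lower. Between the MHCII levels, 13.1% of all genes tested were called higher and 9.67% lower in Tspan8neg cells, and 4.59% higher in Tspan8pos cells. None of the 6 was called between the Tspan8neg subsets by edgeR's quasi-likelihood test, although 3 had an unadjusted p under 0.05 and were higher in MHCIIhi, and 1 was called by DESeq2, in every other alternative but the block, and without either Tspan8negMHCIIhi library or replicate 1 of Tspan8negMHCIIlo, and Eno3 was higher in Tspan8posMHCIIhi than in Tspan8posMHCIIlo (1.03 ± 0.21). Without replicate 1 of Tspan8posMHCIIhi none of the 3 lower in MHCIIhi was called, and without replicate 2 of Tspan8posMHCIIlo 1 of the 2 lower in MHCIIlo was, Eno3 being lost. Eno3 in Tspan8pos cells was lost without replicate 2 of Tspan8posMHCIIhi or either library of Tspan8negMHCIIhi or Tspan8posMHCIIlo.

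Other cells that use some of these genes were followed by marker lists. The 8 genes of smooth muscle and pericytes were lower in sum in the Tspan8pos libraries, as the members were, with summed levels of 1288 and 935 CPM in Tspan8negMHCIIlo, 743 and 723 in Tspan8negMHCIIhi, 506 and 416 in Tspan8posMHCIIhi and 296 and 258 in Tspan8posMHCIIlo, and 4 of 8 were called lower and none higher in Tspan8posMHCIIlo against Tspan8negMHCIIlo by edgeR and by DESeq2, with none higher at an unadjusted p under 0.05, beside 9.34% and 12.1% of all genes tested. In MHCIIhi 4 were lower (2 by DESeq2) and 1 higher, beside 7.45% and 11.0%, with a median log2 fold change of -0.80. Desmin is also a smooth muscle gene, and the part of such cells in its values was not tested. The 10 cardiomyocyte genes summed to 45.2 and 48.3 CPM in Tspan8negMHCIIlo, where Actc1 was highest, against 204 and 209 in Tspan8negMHCIIhi. Their sums were 164 and 175 CPM in Tspan8posMHCIIhi and 120 and 117 in Tspan8posMHCIIlo. Of the 9 tested, 6 were called higher and 0 lower in Tspan8negMHCIIhi than in Tspan8negMHCIIlo, beside 13.1% and 9.67% of all genes tested. Pln and Nkx2-5 were at 0 in both Tspan8negMHCIIlo libraries. Pln was at least 5.22-fold higher in Tspan8negMHCIIhi by the floor, and Nkx2-5 reached at most 0.208 CPM anywhere.

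Endothelial genes summed to 134 and 93.4 CPM in Tspan8negMHCIIlo and 69.8 and 42.3 in Tspan8posMHCIIlo, against 13.9 to 24.6 in the MHCIIhi libraries. Fibroblast genes, with 6 on the list, lay at 52.8 to 248 CPM in all libraries, and thymocyte genes at 62.8 to 933 CPM, highest in replicate 2 of Tspan8negMHCIIlo. Every gene of the smooth muscle, endothelial, fibroblast, thymocyte and mTEC lists had counts in each subset. The high endothelial and thymocyte sums of Tspan8negMHCIIlo coincided with its high Myog, Myl1 and Ryr1, and their part in these was not tested.

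**Figure D4:**
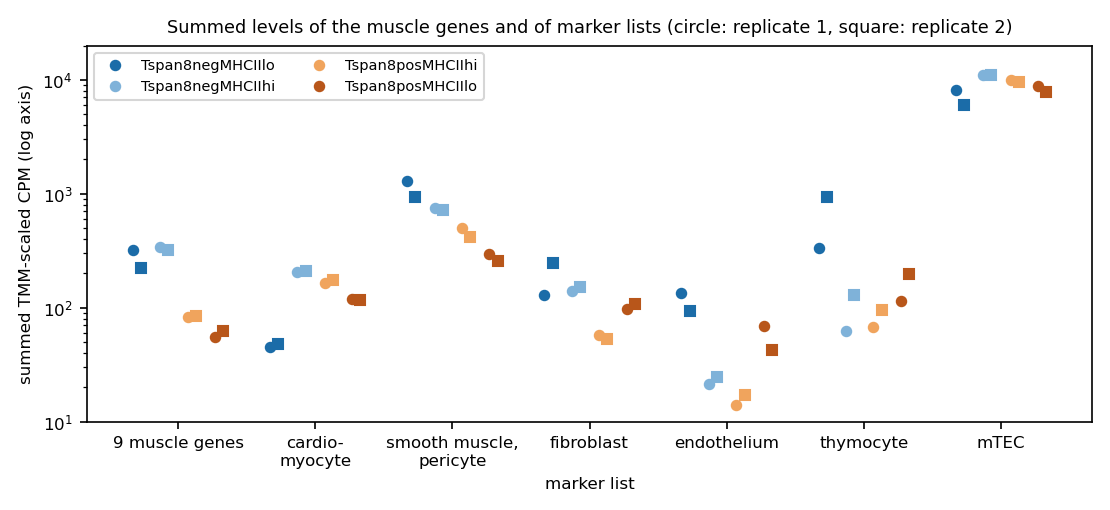
Summed TMM-scaled CPM (log axis) of the 9 muscle genes and of 6 marker lists in each library, coloured by subset, with replicate 1 as a circle and replicate 2 as a square. The muscle genes separate the Tspan8neg libraries (222 to 341 CPM) from the Tspan8pos libraries (55.5 to 84.1 CPM), and the smooth muscle list falls in the same order of Tspan8. The mTEC list, whose single genes moved both ways, sums to 5985 to 11105 CPM.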

How the data were processed

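RNA-seq was measured in 8 libraries of sorted mTECs, 2 for each of 4 subsets, grouped by the sample titles. The authors quantified reads with Salmon 1.8.0 against Gencode vM10 (mm10), and the deposited values are estimated counts per gene given as whole numbers. How transcripts were summed to genes and rounded is not given in the sources used here, and every listed gene has a count in at least 2 libraries. One description names a stranded mRNA kit and another pre-amplified, tagmented cDNA, so strand is unsettled. The authors' DESeq2 1.30.0 results were not used here.

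The estimated counts were scaled by TMM and tested with edgeR 4.0.16 (quasi-likelihood, R 4.3.3, limma 3.58.1) after filterByExpr, in 1 fit of all 8 libraries with a mean for each subset, and p-values were adjusted by Benjamini-Hochberg over 17006 genes. The method was tested on simulated data. Calls required an adjusted p under 0.01 and a fold of at least 2. Between replicates the fit estimated a biological coefficient of variation of 15.5%. The replicates of Tspan8negMHCIIlo were the least alike, with a chi-square per gene of 9.84, against 3.29 to 5.25 in the other subsets. The spread is shared over the subsets, so p-values of comparisons with Tspan8negMHCIIlo may be too small. The p-values come from this model, since an exact permutation test of 2 libraries against 2 cannot go below 0.333. Libraries of 1941518 to 7783841 counts put the floor of 3 counts at 0.385 to 1.55 CPM before scaling. Standard errors are the log2 fold change divided by the root of the F value, counting intervals are exact binomial, and correlations used log2 CPM with a prior count of 2.

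The 9 members and the lists (5 of muscle, and those of smooth muscle, heart, fibroblast, endothelium, thymocyte and mTEC) were chosen with earlier results of these data known. Named genes were the members, at most 4 called genes per list and comparison with the largest change, the 5 genes most like the mean profile, the nearest gene of each member, and Myod1, Chrng, Chrne and Myh3. Pln, Nkx2-5, Rapsn and, between the Tspan8neg subsets, Myh1, Myh4, Myh7 and Myh8 were named after their values were seen. Alternatives were DESeq2 1.42.0 (Wald test), its size factors, no filter, a filter asking for 10 counts or more in 4 or more libraries, a fit to the 4 compared libraries alone, the replicate number as a block, other thresholds and leaving out each library. Replicate numbers were taken from the titles. Same-numbered libraries of different subsets correlated at 0.00402 to 0.0924 in their deviations over genes, under the 0.1 set for pairing, so the fits were unpaired. All these correlations were positive, and with the replicate number as a block the interaction called 1236 genes rather than 783. Gene positions are from GENCODE M21 (GRCm38), promoters from RefSeq (GRCm38.p6, all 9 members matched), and shared sequence was counted in stretches of 31 bases.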

Additional observations from a re-analysis of the deposited data

Results flagged for a closer look

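The difference between Tspan8pos and Tspan8neg cells was not the same at both MHCII levels for 7 of the 77 tested genes of the muscle lists (9.09%, beside 4.60% of all genes tested), by the interaction in edgeR's quasi-likelihood test. The lists are not limited to genes made only in muscle, and whether these differences arose in cells with a muscle program was not tested. The values are the log2 fold change in MHCIIlo less that in MHCIIhi. Among the members this was Myl1, at -4.27 (adjusted p = 0.00562). Acta1, the adult skeletal actin, had -4.67 (adjusted p = 0.00038), and it passed without each of the 8 libraries. Myh3, the embryonic myosin heavy chain, had 4.06 (adjusted p = 0.000535) and missed the threshold without replicate 2 of Tspan8posMHCIIlo. Agrn, which clusters the acetylcholine receptor, had -1.58 (adjusted p = 0.000977) and missed it without replicate 1 of Tspan8negMHCIIhi. Tpm2, a tropomyosin, had -1.69 (adjusted p = 0.00191) and missed it without replicate 1 or 2 of Tspan8negMHCIIhi, replicate 1 of Tspan8posMHCIIhi or replicate 2 of Tspan8posMHCIIlo. The myomesin genes, of the M line, went in opposite directions, with -2.93 for Myom2 (adjusted p = 0.00924) and 2.69 for Myom3 (adjusted p = 0.00862). Myom2 was lost without any library outside Tspan8negMHCIIlo, Myom3 without any but replicate 2 of Tspan8negMHCIIlo, and both with DESeq2.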

How the results depend on the processing

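With 2 libraries a subset, leaving 1 out leaves a lone library assumed to vary like the other subsets. Over these fits the members called numbered 1 to 3 for Tspan8pos against Tspan8neg in MHCIIhi (1 without replicate 1 of Tspan8posMHCIIhi), 0 to 1 for MHCIIhi against MHCIIlo in Tspan8pos, 0 to 3 for the interaction and 1 to 4 for Tspan8posMHCIIlo against Tspan8negMHCIIhi. The interaction called 3 members without the filter, and with the replicate block 2 in place of 1, the 1 count of members that the block moved by over 1.5 times. In a list, the block gave 1 junction gene higher in Tspan8posMHCIIhi than in Tspan8posMHCIIlo in place of 2. At an adjusted p under 0.05, 5, 1 and 3 members were called in MHCIIhi, in Tspan8pos and by the interaction.

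Signs changed only in uncalled differences. Myl1 in MHCIIhi was -0.0199 with DESeq2, -0.0324 with its size factors, -0.0024 without the filter and -0.0151 with 10 counts in 4 libraries, and -0.43 to 0.41 over the left-out fits. Over those fits Musk ranged from -1.60 to 0.13 in MHCIIhi and from -1.06 to 0.29 in Tspan8neg, Ckm from -0.52 to 1.10 and Ryr1 from -0.20 to 1.04 in Tspan8pos, and the interaction of Ckm from -1.51 to 0.11. For Tspan8posMHCIIlo against Tspan8negMHCIIhi, Myog ranged from -0.32 to 0.22 and Chrna1 from -0.45 to 0.21, and for Tspan8posMHCIIhi against Tspan8negMHCIIlo Chrna1 ranged from -0.76 to 0.74. The cause of these changes was not tested.

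Ttn between Tspan8posMHCIIhi and Tspan8negMHCIIlo was under the fold limit in 5 alternatives, from -0.976 without the filter to -0.9998 with the replicate block, and at -0.99 with DESeq2. With only the 4 libraries compared, 3 coupling genes rather than 5 and 1 sarcomere gene rather than 3 changed in MHCIIlo (lower and higher), and 5 coupling and 4 junction genes rather than 3 and 2 were lower in MHCIIhi. DESeq2 called 3 coupling genes rather than 5 higher in Tspan8negMHCIIhi. Size factors moved log2 fold changes by at most 0.0833 from TMM. The interaction could not be fitted with 4 libraries. Musk, Chrna1 and the receptor subunits rest on few counts, so small differences in them were not detectable at this depth.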
